A study of Mus musculus with 3 samples.

Results

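Cd44, Cd24a, Thy1 and Cd53 encode 4 surface proteins by which early thymocytes are commonly sorted or identified. Their 4 transcripts were found by symbol among the 28692 genes listed for each of the first 2 libraries and the 32285 genes listed for the third, and each symbol matched 1 row. Their unique molecular identifiers (UMIs, 1 per captured mRNA molecule) were followed in 21879 of 23283 cells, namely those with 500 to 5000 genes and at most 7% of counts on mitochondrial genes. All cells came from C57BL/6 mice of 6 to 8 weeks without any further allele or agent, and 4 thymi were pooled for each library and depleted of CD4+ and CD8+ cells before the sort. Run 1 held CD4-CD8- (double negative, DN) cells together with TCRγδ+ cells. Run 2 held DN1 (CD25-CD44+) and DN2 (CD25+CD44+) cells and was gated against surface TCRγδ. Run 3 held DN1, DN2, DN3 (CD25+CD44-) and TCRγδ+ cells, combined in set proportions only once they had been sorted. The sorts also left out cells with surface CD11b, CD11c, NK1.1 or TCRβ, among other markers. Each sort was made once, so that runs are not replicates, and in a difference between runs the sort cannot be told apart from the library. The third library was also counted on a longer list of genes. The kit of each run is not given in the sources used here.

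CD44 is a receptor for hyaluronan and is carried by the earliest thymocytes, while CD25, the product of Il2ra, appears later and CD44 is then lost. CD24, the heat stable antigen, is a small glycosylated protein that is abundant on immature thymocytes and falls as they mature. Thy1 (CD90) is a GPI-linked protein of T lineage cells, and CD53 is a tetraspanin of leukocytes. Kit encodes the receptor for stem cell factor, which marks the early T cell progenitors among DN1 cells. Trdc and Trac are the constant regions of the TCR δ and α chains.

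The total depth was 39947415, 52797915 and 98533329 UMIs in runs 1, 2 and 3, and the median per kept cell was 5989.5, 4844 and 8507, respectively. Because a deeper cell shows more of its transcripts, each cell was thinned at random to 2000 UMIs whenever cells were called positive or negative, which left out 48 kept cells of run 3. Runs 1 and 2 shared 72 barcodes and runs 1 and 3 shared 3. The 5 T lineage genes Cd3e, Cd3d, Cd3g, Bcl11b and Lck summed to between 3649 and 4234 CPM (UMIs of a gene scaled to a common library total) in the 3 runs, and all 5 were detected in each. Levels are CPM of the summed counts of a set of cells, followed in brackets by a 95% Poisson interval, and shares of cells are followed by a 95% Clopper-Pearson interval. These brackets hold the error of counting and nothing of the spread between mice or libraries, and no test was made because each sort had 1 library.

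In the mouse genome (build GRCm38, equal to the mm10 build of the counts), Cd44 lies at chr2:102811141-102901665 and Cd53 at chr3:106759921-106790149, both on the minus strand. Cd24a lies at chr10:43578284-43584265 and Thy1 at chr9:44043384-44048579, both on the plus strand. All 4 are protein-coding genes. The RefSeq promoter table of build GRCm38.p6 matched 2 of the 4 members, Cd44 and Cd53, and these 2 are shown because the table holds no entry for Cd24a and Thy1. The 250 bases before each start are written 5′ to 3′ on the minus strand, from chr2:102901666-102901915 for Cd44 and from chr3:106790150-106790399 for Cd53. Capitals mark the RUNX core TGTGGT and the ETS core AGGAAG, read on both strands.
Cd44: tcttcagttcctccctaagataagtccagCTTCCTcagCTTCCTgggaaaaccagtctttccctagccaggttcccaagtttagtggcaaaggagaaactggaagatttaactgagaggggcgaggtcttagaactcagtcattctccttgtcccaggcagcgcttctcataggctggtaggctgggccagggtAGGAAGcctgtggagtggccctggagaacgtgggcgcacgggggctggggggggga
Cd53: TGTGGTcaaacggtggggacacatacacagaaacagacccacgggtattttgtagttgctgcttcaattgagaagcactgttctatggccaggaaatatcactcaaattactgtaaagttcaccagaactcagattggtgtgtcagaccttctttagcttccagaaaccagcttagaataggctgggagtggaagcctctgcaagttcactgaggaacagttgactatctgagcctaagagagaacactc
The Cd44 window held 3 matches to the ETS core and 0 to the RUNX core, whereas the Cd53 window held 1 match to the RUNX core and 0 to the ETS core. Of 32851 windows of the same length in the table, 29.5% held the ETS letters and 14.0% the RUNX letters. A match is a description of letters and not a site that was measured to be bound.

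The 4 transcripts differed most between runs for Cd44. It was at 2.76 CPM (2.27 to 3.33) in run 1, at 30.3 CPM (28.9 to 31.9) in run 2 and at 28.3 CPM (27.2 to 29.5) in run 3. After thinning, a Cd44 UMI was found in 0.616%, 8.22% and 6.34% of cells, respectively, against 1.79%, 14.9% and 20.2% with all UMIs. The CD44 protein was part of the gate of every cell in run 2, and most of these cells held no Cd44 UMI at this depth. Only 34 cells of run 1 held a thinned Cd44 UMI, and statements on Cd44 in that run are limited accordingly.

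Cd24a was at 431 CPM (425 to 438) in run 1, 669 CPM (662 to 676) in run 2 and 317 CPM (313 to 321) in run 3. It was seen in 58.3%, 53.2% and 39.0% of thinned cells, and its counts were spread most widely in run 2, where the variance was 1.93 times the mean. Thy1 was at 877 CPM (867 to 886), 744 CPM (736 to 751) and 342 CPM (338 to 347), and was seen in 79.5%, 70.0% and 45.7% of thinned cells. Cd53 was at 61.3 CPM (58.8 to 63.7), 281 CPM (276 to 285) and 132 CPM (130 to 135), with 14.9%, 45.9% and 24.6% of thinned cells. Cd24a and Thy1 were thus lowest in run 3, while Cd44 and Cd53 were lowest in run 1, and none of these between-run intervals overlapped except those of Cd44 in runs 2 and 3.

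To see how well each transcript ordered the cells of a sort, cells were gated by Kit, Il2ra, Trdc or Trac. Those with at least 1 thinned UMI of the gene were set against those with 0. A Kit UMI was found in 1.45%, 3.03% and 4.62% of thinned cells of runs 1, 2 and 3. With all UMIs it was found in 3.61%, 9.55% and 18.7%, so that most cells with a Kit UMI were called negative. For Il2ra the shares were 25.8%, 26.4% and 31.9% after thinning and 45.9%, 48.8% and 56.1% with all UMIs. Trdc and Trac were also found in fewer cells after thinning in every run. The positive cells numbered 80, 268 and 345 for Kit in runs 1, 2 and 3, 1422, 2335 and 2379 for Il2ra, 2824, 3925 and 2782 for Trdc, and 215, 2622 and 1140 for Trac. For each gate, the ratio of levels (log2 of positive over negative, after adding 1 CPM to both sides) gives the size of the difference. The area under the ROC curve (AUC) gives the chance that a positive cell holds more UMIs than a negative one, with ties counted as 0.5, so that 0.5 is no order. Members at 2-fold or more were counted. The share of all other genes (mean of both sides at 5 CPM or more) that were 2-fold or more apart is given beside each count. Cd44 of run 1 was under 5 CPM on both sides of each of these gates. It was counted as a member there but was below the level needed for that share.

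**Figure D1:**
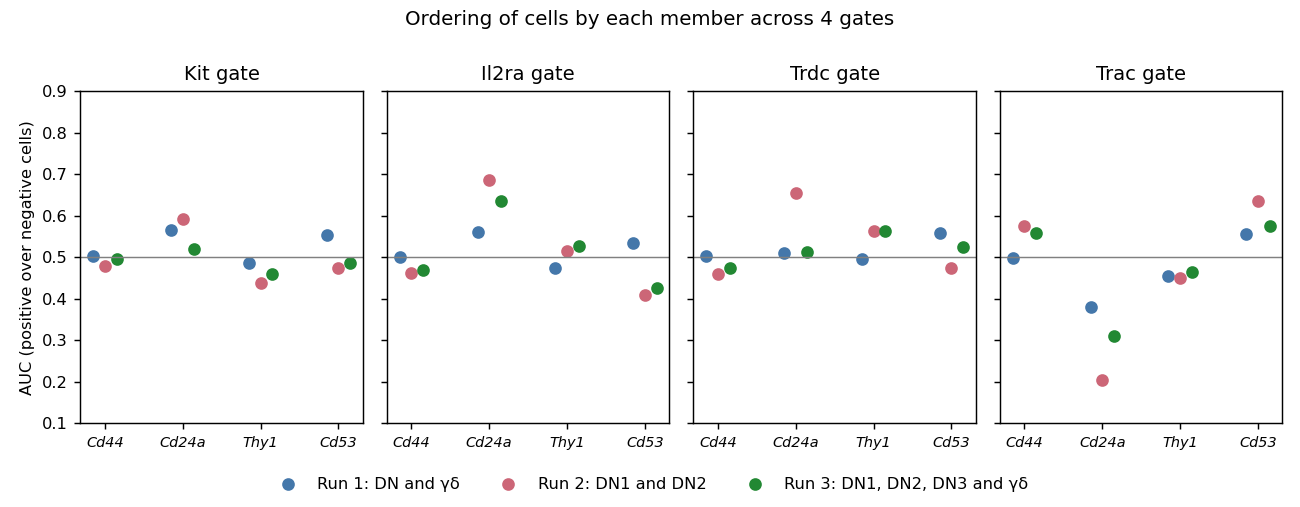
AUC of each member (y axis, from 0.1 to 0.9) across the Kit, Il2ra, Trdc and Trac gates, with 1 point per run and a grey line at 0.5. Cd24a lies farthest from the line, down to 0.205 for the Trac gate of run 2, and every Thy1 point lies between 0.438 and 0.564.

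The Trac gate separated the members most. In run 2, 3 of 4 members were 2-fold or more apart against a background of 17.9% of genes, in run 3 it was 3 of 4 against 16.1%, and in run 1 it was 0 of 4 against 1.86%. Many genes thus differed between Trac-positive cells and the rest in runs 2 and 3.

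Cd24a was lower in Trac-positive cells of every run. It was at 187 CPM (178 to 195) against 779 CPM (771 to 787) in run 2, which is 4.16-fold, and at 62.3 CPM (57.3 to 67.8) against 349 CPM (345 to 354) in run 3, which is 5.53-fold. The AUC was 0.205 and 0.310, ranks 18 and 41 among all genes by distance from 0.5. A Cd24a UMI was left in 13.8% of Trac-positive and 69.7% of Trac-negative cells of run 2, and in 7.19% and 44.7% in run 3. In run 1 the difference was in the same direction but smaller, at 328 CPM (302 to 356) against 436 CPM (429 to 443) with an AUC of 0.380 (rank 9).

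Cd44 went the other way in runs 2 and 3. It was at 90.8 CPM (84.9 to 97.0) in Trac-positive and 16.6 CPM (15.4 to 17.8) in Trac-negative cells of run 2. In run 3 it was at 82.2 CPM (76.3 to 88.4) against 21.5 CPM (20.4 to 22.6). After adding 1 CPM to both sides, this is 5.23-fold higher in run 2 and 3.70-fold higher in run 3. Its AUC was only 0.576 and 0.558, since 18.9% and 16.1% of Trac-positive cells held a Cd44 UMI. A large ratio of levels therefore came with a weak ordering of single cells. In run 1, 3 Cd44 UMIs fell in Trac-positive cells, with a log2 ratio of -0.49 (-3.01 to 0.87).

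Cd53, the tetraspanin, was also higher in Trac-positive cells. It was at 484 CPM (470 to 498) against 235 CPM (230 to 239) in run 2 and at 240.1 CPM (230.1 to 250.6) against 119 CPM (116 to 121) in run 3, which is 2.06-fold and 2.02-fold, just inside the limit of 2-fold. In run 1 it was at 110 CPM (95.3 to 127) against 59.0 CPM (56.6 to 61.5), or 1.86-fold, just outside it. Thinning to 3000 UMIs gave a log2 ratio of 0.96 in run 2, and thinning to 1000 UMIs gave 0.98 in run 3, both under 2-fold. The AUC was 0.556, 0.636 and 0.575 in runs 1, 2 and 3. Over all cells, Thy1 was nearly level across this gate, with log2 ratios of -0.07, -0.03 and -0.11 and an AUC of 0.454, 0.450 and 0.463. A Thy1 UMI was found in 61.6% of Trac-positive and 73.5% of Trac-negative cells of run 2.

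Depth and other marker genes moved with the Trac gate. Trac-positive cells had a median of 2933 UMIs in run 2 against 5994 in Trac-negative cells, and 6423 against 9092 in run 3. The sum of 5 natural killer receptor and effector genes (Klrd1, Klrb1c, Nkg7, Ccl5 and Il2rb, all detected in each run) was 3147 CPM against 433 CPM in run 2 and 1864 CPM against 420 CPM in run 3, and the sum of 5 cycling genes was 273 CPM against 877 CPM and 377 CPM against 1089 CPM. The sum of 5 myeloid genes (Lyz2, Csf1r, Cd68, Itgam and Fcer1g, all detected in each run) was 243 CPM against 68.7 CPM in run 2 and 199.8 CPM against 73.9 CPM in run 3. The sum of 5 erythroid genes (Hba-a1, Hba-a2, Hbb-bs, Hbb-bt and Alas2) was 32.9 CPM against 215 CPM in run 2 and 16.9 CPM against 48.2 CPM in run 3. Over all cells of run 2, the highest single gene gave 69.8 of 101 CPM of the myeloid list and 492 of 936 CPM of the natural killer list. For the erythroid list it gave 71.1 of 182 CPM in run 2 and 41.9 of 44.6 CPM in run 3. These sums therefore do not show that the genes of a list moved together. The part of these lists in the result was not tested. Within quartiles of total UMIs, Cd24a was lower in Trac-positive cells in 4 of 4 quartiles of each run, with log2 ratios from -3.31 to -0.33 in run 2 and from -3.24 to -1.83 in run 3. Cd44 was higher in 4 of 4 quartiles of runs 2 and 3, by 0.87 to 2.33 and by 1.27 to 1.73. Cd53 was higher in 3 of 4 quartiles of run 2, where it ranged from -0.02 to 0.73, and in 4 of 4 of run 3, from 0.38 to 0.96, so that it was under 2-fold within every quartile of both runs. Thy1 was lower in Trac-positive cells of the shallowest quartile, with log2 ratios of -0.50, -0.70 and -0.49 in runs 1, 2 and 3. In the deeper quartiles Thy1 was between -0.23 and 0.03 in run 1, -0.10 and 0.06 in run 2, and -0.32 and 0.09 in run 3.

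Among cells without a thinned UMI of Kit or Il2ra, the Trdc-positive Trac-negative cells were set against the Trac-positive Trdc-negative cells. This compares the 2 TCR constant regions directly, although cells called negative can hold UMIs that thinning removed. Cd24a was at 788 CPM (774 to 803) against 93.0 CPM (86.2 to 100.1) in run 2 and at 285 CPM (277 to 293) against 29.5 CPM (25.6 to 33.9) in run 3, which is 8.40-fold and 9.36-fold, with an AUC of 0.807 and 0.657. Cd44 was at 17.4 CPM (15.4 to 19.7) against 100.7 CPM (93.6 to 108) and at 16.6 CPM (14.7 to 18.6) against 96.0 CPM (88.7 to 104), a log2 ratio of -2.46 in both runs. Thy1 was moderately higher on the Trdc side, with log2 ratios of 0.23 and 0.35 and an AUC of 0.594 and 0.591. In run 1, which had 78 cells on the Trac side, Cd24a was at 417 CPM (407 to 428) against 325 CPM (285 to 369).

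**Figure D2:**
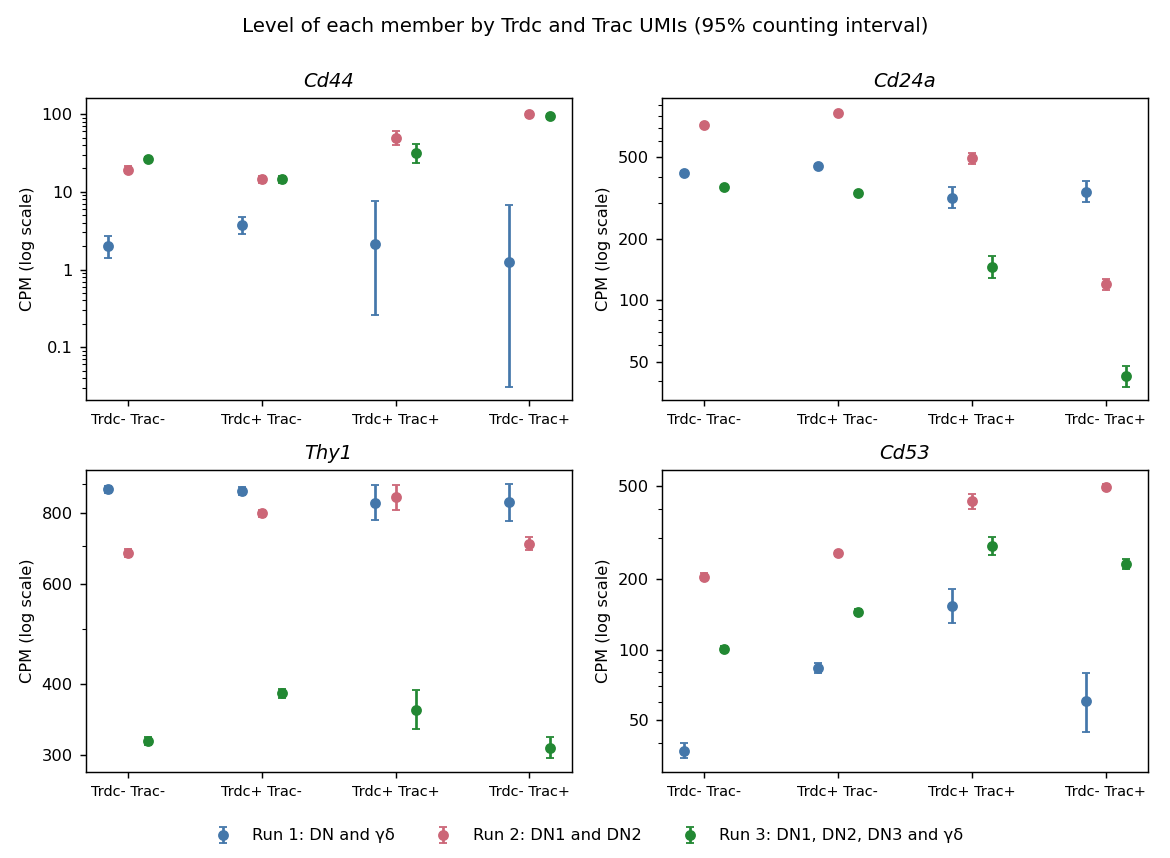
CPM of each member (y axes, log scale) in cells without or with thinned Trdc and Trac UMIs. There is 1 colour per run, with 95% counting intervals. Cd24a reaches its lowest levels, 120 CPM in run 2 and 42.4 CPM in run 3, in the Trac-positive Trdc-negative cells, where Cd44 is highest in the same runs.

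Across the Il2ra gate, which marks CD25 transcription, 1 of 4 members was past 2-fold in each run, against backgrounds of 2.75%, 2.67% and 4.71% of genes in runs 1, 2 and 3. The member was not the same in each run. Cd44 was lower in Il2ra-positive cells of run 2, at 13.4 CPM (11.7 to 15.3) against 38.0 CPM (36.0 to 40.1), and of run 3, at 12.1 CPM (10.8 to 13.5) against 36.7 CPM (35.1 to 38.4). The AUC was 0.463 and 0.468, again close to no order. In run 1 Cd44 was at 4.07 CPM (2.73 to 5.85) against 2.48 CPM (1.97 to 3.08), and within quartiles of depth its log2 ratio was below 0 in 2 of 4.

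Cd24a did not pass 2-fold across the Il2ra gate but ordered the cells better than any other member. It was at 534 CPM (517 to 551) against 409 CPM (402 to 416) in run 1, at 848 CPM (834 to 862) against 588 CPM (580.2 to 596) in run 2 and at 428 CPM (420.4 to 436) against 260 CPM (255 to 264) in run 3. The AUC was 0.560, 0.686 and 0.636, ranks 205, 9 and 22 among all genes. Cd24a UMIs were present in 78.2% of Il2ra-positive cells and 44.2% of Il2ra-negative cells of run 2. It was higher in all 4 quartiles of depth in runs 2 and 3, and the log2 ratio was widest in the shallowest quartile, at 2.82 and 1.37. In run 1 Cd24a was higher in 3 of 4 quartiles, with log2 ratios from -0.02 to 0.19, against 0.39 over all cells.

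Cd53 had opposite directions in run 1 and in runs 2 and 3 at the Il2ra gate. It was at 105 CPM (97.8 to 113) in Il2ra-positive and 51.7 CPM (49.2 to 54.2) in Il2ra-negative cells of run 1, which is 2.02-fold higher. In run 2 it was at 210 CPM (203 to 217) against 313 CPM (307 to 319) and in run 3 at 83.0 CPM (79.5 to 86.5) against 158 CPM (154 to 161). Within quartiles of depth the log2 ratio went from -0.88 to 0.02 in run 2, being below 0 in 3 of 4. In run 3 it went from -1.64 to -0.29. In run 1 Il2ra-positive cells were shallower, with a median of 3820 UMIs against 7169.5, and within quartiles of depth the log2 ratio of that run went from -0.73 to 1.22, being below 0 in 1 of 4. Another seed of the thinning gave 0.87 in place of 1.01, under 2-fold. Thy1 had log2 ratios of -0.18, -0.00 and 0.06 and an AUC of 0.474, 0.516 and 0.526.

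The natural killer list was lower in Il2ra-positive cells of run 2, at 432 CPM against 1166 CPM, and of run 3, at 288 CPM against 734 CPM, whereas it was at 223 CPM against 87.9 CPM in run 1. The myeloid list was at 62.8 CPM against 119 CPM in run 2 and at 44.2 CPM against 111 CPM in run 3. The erythroid list was at 54.5 CPM against 239 CPM in run 2 and at 66.0 CPM against 33.8 CPM in run 3. Over all cells of run 1, the highest single gene gave 99.2 of the 112 CPM of the natural killer list. The part of these lists in the Il2ra result was not tested.

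Leaving out the Trac-positive cells, a choice made after seeing the data, reduced the differences of Cd44, Cd24a and Cd53 across the Il2ra gate in runs 2 and 3. The Il2ra gate then had Cd44 at 10.6 CPM against 19.96 CPM in run 2, a log2 ratio of -0.85 that no longer passed 2-fold, and at 10.98 CPM against 27.8 CPM in run 3, a log2 ratio of -1.26 that did. The AUC of Cd24a went from 0.686 to 0.593 in run 2 and from 0.636 to 0.608 in run 3, with log2 ratios of 0.23 and 0.52. The log2 ratio of Cd53 went from -0.57 to -0.30 in run 2 and from -0.92 to -0.80 in run 3.

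Across the Trdc gate, 1 of 4 members was past 2-fold in each run, against 0.293%, 2.45% and 2.33% of genes. In run 1 this was Cd53, at 86.9 CPM (82.7 to 91.2) in Trdc-positive and 38.0 CPM (35.4 to 40.7) in Trdc-negative cells. Its AUC was 0.557, which was rank 18 of 8547 genes in a run where few genes were ordered by Trdc. Cd53 was higher in all 4 quartiles of depth of run 1, by log2 0.69 to 1.11, but when the gate used all UMIs instead of thinned ones the log2 ratio was 0.21. In runs 2 and 3 Cd53 was at 270 CPM (263 to 276) against 291 CPM (285 to 298) and at 153 CPM (148 to 157) against 120 CPM (117 to 123), and without Trac-positive cells the log2 ratio of run 2 turned from -0.11 to 0.33.

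In runs 2 and 3 the member past 2-fold at the Trdc gate was Cd44. It was at 16.9 CPM (15.3 to 18.5) against 43.0 CPM (40.6 to 45.6) in run 2 and at 15.5 CPM (14.1 to 17.0) against 36.2 CPM (34.6 to 38.0) in run 3. Without Trac-positive cells these log2 ratios went from -1.30 and -1.17 to -0.39 and -0.81, and neither passed 2-fold. The same was true after adding 10 CPM to both sides in place of 1, with -0.98 and -0.86.

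Cd24a was higher in Trdc-positive cells of run 2, at 801 CPM (791 to 813) against 544 CPM (536 to 553), with an AUC of 0.654 (rank 17). Without Trac-positive cells the AUC of run 2 was 0.531 and its log2 ratio went from 0.56 to 0.19. In runs 1 and 3 Cd24a was nearly level, with an AUC of 0.511 and 0.513, and in run 3 the log2 ratio turned from 0.06 to -0.09 without Trac-positive cells. Thy1, the T lineage marker, was higher in Trdc-positive cells of run 2, at 802 CPM (791 to 813) against 689 CPM (679 to 698), and of run 3, at 384 CPM (377 to 391) against 317 CPM (312 to 322). It was at 874 CPM (860.5 to 887) against 879 CPM (866 to 892) in run 1, where the intervals overlapped. Within quartiles of depth, Thy1 was higher in 4 of 4 quartiles of runs 2 and 3. Its log2 ratio was widest in the shallowest quartile, at 0.94 in run 2 and 1.21 in run 3. In the deeper quartiles it was between 0.08 and 0.22 in run 2 and between 0.06 and 0.39 in run 3.

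At the Trdc gate the natural killer list was at 474 CPM in positive and 1373 CPM in negative cells of run 2, and at 408 CPM and 691 CPM in run 3. The erythroid list was at 28.1 CPM and 327 CPM in run 2, and at 17.3 CPM and 61.4 CPM in run 3. The myeloid list was at 58.0 CPM and 142 CPM in run 2, and at 45.3 CPM and 115 CPM in run 3. The part of these lists in the Trdc result was not tested.

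Across the Kit gate, 1 of 4 members was past 2-fold in run 1 and 0 of 4 in runs 2 and 3, against 7.23%, 2.11% and 2.13% of genes. The 1 member was Cd53, at 146 CPM (112 to 185) in the 80 Kit-positive cells of run 1 and 60.3 CPM (57.9 to 62.8) in the others. With the gate on all UMIs, its log2 ratio went from 1.26 to 0.57. Cd44 in the same run was past 2-fold with another seed of the thinning, at 1.08, on very few UMIs. In runs 2 and 3 the log2 ratio of Cd53 was -0.14 and -0.16. Without Trac-positive cells it was 0.14 (0.002 to 0.276) and -0.002 (-0.139 to 0.131). Within quartiles of depth it was below 0 in 2 of 4 in both of these runs.

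Thy1 was lower in Kit-positive cells of runs 2 and 3. It was at 580 CPM (546 to 615) against 750 CPM (742 to 758) in run 2 and at 269 CPM (253 to 285) against 346 CPM (342 to 351) in run 3, while in run 1 the intervals overlapped at 817 CPM (736 to 906) against 877 CPM (868 to 887). The AUC was 0.487, 0.438 and 0.459. Where cells with 2 or more Kit UMIs were taken as positive, the log2 ratios of runs 2 and 3 widened from -0.37 and -0.37 to -1.03 and -1.21, on few cells (17 and 29), while run 1 had 0.31 on 5 cells. Within quartiles of depth Thy1 was lower in Kit-positive cells in 4 of 4 quartiles of run 2 and in 3 of 4 of run 3, where the shallowest quartile had a log2 ratio of 0.39 (0.10 to 0.66). Thy1 was lower in Kit-positive cells also among Il2ra-positive cells, with log2 ratios of -0.31, -0.31 and -0.27, and among Il2ra-negative cells of runs 2 and 3, with -0.41 and -0.45. The Il2ra-positive value of run 1 rested on 29 Kit-positive cells. Its intervals overlapped, at 640 CPM (514 to 788) against 792 CPM (771 to 813).

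Cd24a was higher in Kit-positive than in Kit-negative cells of runs 1 and 2, with an AUC of 0.565 and 0.593 (ranks 115 and 25), and nearly level in run 3, with 0.520. Without Trac-positive cells the direction of run 2 turned, at 732 CPM against 781 CPM with a log2 ratio of -0.09 (-0.18 to -0.01) and an AUC of 0.506. In run 2 it was also lower in 2 of 4 quartiles of depth. Among Il2ra-negative cells, Cd24a was at 605 CPM (521 to 698) against 407 CPM (400.0 to 414) in run 1, 719 CPM (671 to 770) against 584 CPM (576 to 592) in run 2 and 279 CPM (258 to 301) against 259 CPM (254 to 263) in run 3. Among Il2ra-positive cells it was at 745 CPM (684 to 811) against 853 CPM (838 to 867) in run 2 and at 356 CPM (328 to 385) against 433 CPM (425 to 442) in run 3, which is the opposite direction. With neither Trdc nor Trac UMIs, Il2ra-negative cells had overlapping intervals in runs 2 and 3. They were 701 CPM (633 to 775) against 664 CPM (649 to 679) and 292 CPM (266 to 321) against 312 CPM (305 to 320). Those with Trdc but no Trac UMIs overlapped too. Their levels were 752 CPM (680 to 830) against 788 CPM (774 to 803) and 274 CPM (240 to 312) against 285 CPM (277 to 293).

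Cd44 had no common direction at the Kit gate. It was at 19.6 CPM (13.8 to 27.0) against 30.7 CPM (29.2 to 32.3) in run 2 and at 32.7 CPM (27.4 to 38.6) against 28.1 CPM (26.9 to 29.4) in run 3. Without Trac-positive cells the log2 ratio of run 2 turned from -0.62 to 0.25, and that of run 3 went from 0.21 to 0.61. In run 1 only 2 Cd44 UMIs fell in Kit-positive cells.

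**Figure D3:**
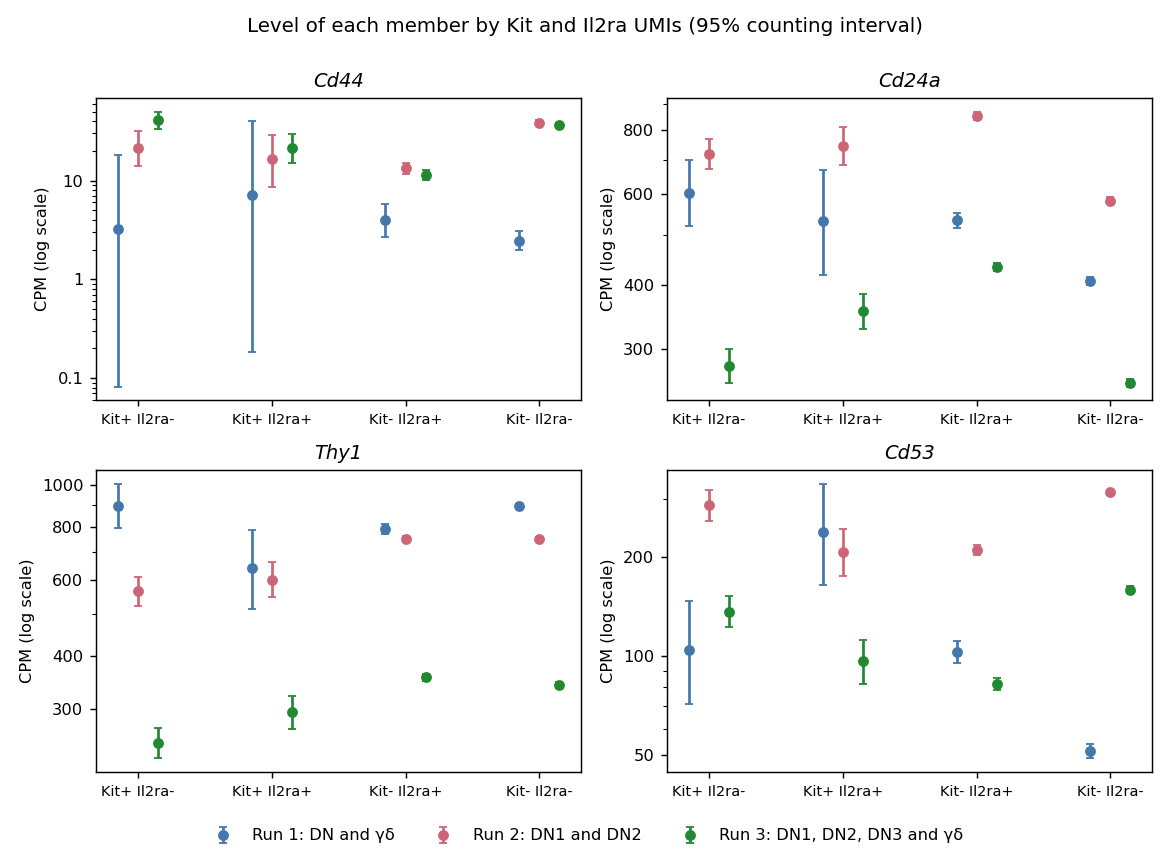
CPM of each member (y axes, log scale) in cells with or without thinned Kit and Il2ra UMIs. There is 1 colour per run, with 95% counting intervals. Cd24a is highest in Kit-negative Il2ra-positive cells of runs 2 and 3, at 853 CPM and 433 CPM, and lowest in cells without either UMI in all 3 runs. Trac-positive cells are included.

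When the Kit and Il2ra gates were crossed with Trac-positive cells included, the order of Cd24a was the same in runs 2 and 3. It went from 584 CPM in cells without either UMI to 853 CPM in Kit-negative Il2ra-positive cells of run 2, and from 259 CPM to 433 CPM between the same cells of run 3. The 3 neighbouring pairs in that order had 1 overlap of intervals in each of these runs, which was between the 2 Kit-positive populations in run 2 and between cells without either UMI and Kit-positive Il2ra-negative cells in run 3. Cd44 in run 3 went from 11.4 CPM in Kit-negative Il2ra-positive cells through 21.4 CPM in cells with both to 36.5 CPM in cells without either and 40.7 CPM in Kit-positive Il2ra-negative cells, and the last 2 overlapped. In run 2 the same Il2ra-positive cells were lowest at 13.3 CPM, and cells without either UMI were highest at 38.5 CPM. Of the cells without either UMI, 2193 of 6348 in run 2 and 910 of 4881 in run 3 had Trac alone. These Trac cells had Cd24a at 93.0 CPM and 29.5 CPM and Cd44 at 100.7 CPM and 96.0 CPM. Without Trdc and Trac UMIs, run 2 had Cd44 at 22.9 CPM (20.2 to 25.8) in cells without either UMI. Kit-positive Il2ra-negative cells were then at 30.9 CPM (18.0 to 49.4). The crossed order was not repeated over all cells without Trac UMIs. Split by Trdc, Cd24a stayed highest in Kit-negative Il2ra-positive cells of runs 2 and 3. Kit-positive Il2ra-negative cells were at 292 CPM against 312 CPM in cells without either UMI of run 3 that lacked Trdc. With Trdc these were at 274 CPM against 285 CPM. In run 2 they were at 701 CPM against 664 CPM without Trdc and at 752 CPM against 788 CPM with it. Each of these pairs had overlapping intervals.

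With all 4 gates crossed, 6 populations of run 1 and 10 each of runs 2 and 3 had at least 50 cells. Thy1 varied least among them, by 1.18-fold in run 1, 1.74-fold in run 2 and 1.84-fold in run 3 from the lowest to the highest. Folds between populations were taken without any added CPM. Cd24a varied by 1.87-fold, 9.62-fold and 14.9-fold, and Cd44 by 10.7-fold and 10.95-fold in runs 2 and 3. Cd53 varied by 5.45-fold, 2.67-fold and 4.10-fold. In runs 2 and 3, the population with Trac alone had the lowest Cd24a (93.0 CPM and 29.5 CPM) and the highest Cd44 (100.7 CPM and 96.0 CPM). Neighbours in these orders mostly overlapped, with 8 of 9 neighbouring pairs for Cd44 in both runs, and 5 of 9 and 6 of 9 for Cd24a. In the same runs Thy1 was lowest in the population with Kit alone, at 505 CPM (447 to 568) and 217 CPM (194 to 242). The next population overlapped it in both runs, at 616 CPM (543 to 695) and 261 CPM (231 to 294). Of the neighbouring pairs of Thy1, 8 of 9 and 7 of 9 overlapped.

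Read in the other direction, the number of Cd24a UMIs in a cell went with the shares of Trac-positive and Il2ra-positive cells. In run 2, 54.5% (53.0 to 56.0) of cells with 0 Cd24a UMIs were Trac-positive, against 13.4% (11.9 to 15.1) with 1, 5.29% (4.16 to 6.63) with 2 and 3.30% (2.47 to 4.30) with 3 or more. In run 3 the shares were 23.2% (22.0 to 24.5), 3.51% (2.69 to 4.50), 1.76% (0.965 to 2.93) and 1.97% (0.852 to 3.84). Most of the separation was thus between 0 and 1 UMI. The share of Il2ra-positive cells went the other way, from 12.3% (11.3 to 13.3) with 0 to 43.2% (40.8 to 45.7) with 3 or more in run 2, and from 21.8% (20.2 to 23.6) to 36.6% (32.7 to 40.7) in run 1. The share of Trdc-positive cells went from 28.8% with 0 to 60.6% with 3 or more in run 2. In run 3 it had no steady direction, at 35.8%, 42.5%, 36.9% and 32.2% with 0, 1, 2 and 3 or more.

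**Figure D4:**
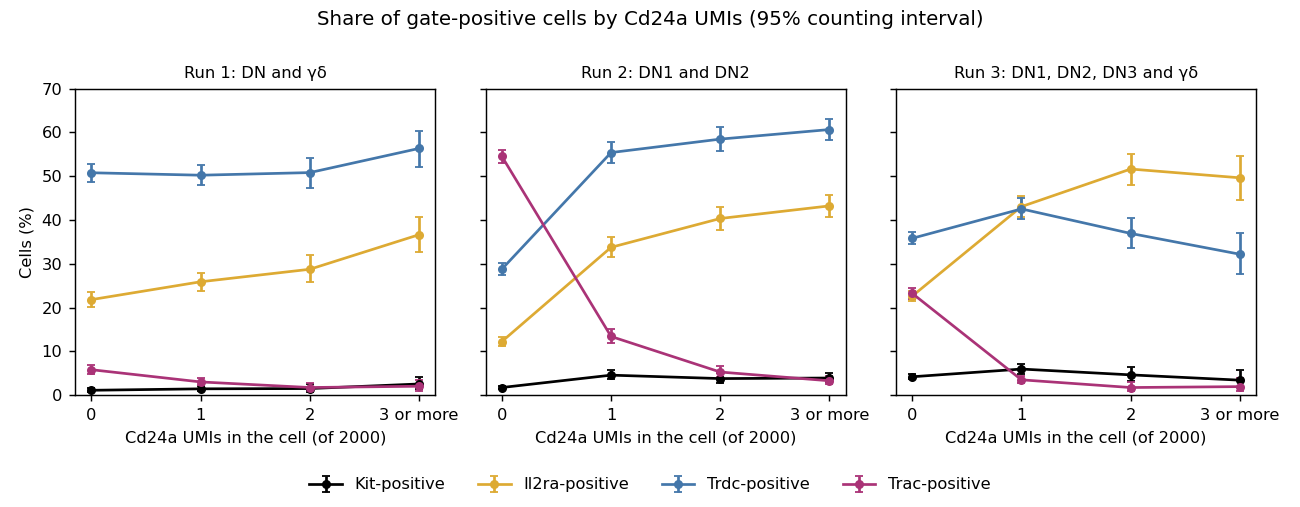
Percent of cells positive for Kit, Il2ra, Trdc or Trac (y axis) by the number of Cd24a UMIs among 2000 (x axis), 1 panel per run, with 95% Clopper-Pearson intervals. In run 2 the Trac-positive share goes from 54.5% at 0 UMIs to 3.30% at 3 or more, while the Il2ra-positive share goes from 12.3% to 43.2%.

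The numbers of UMIs of Thy1 told less than those of Cd24a about the Trac and Il2ra gates. At the Trdc gate of run 3 they told more, with an AUC of 0.563 against 0.513. In run 2 the share of Trac-positive cells was 38.0% (36.1 to 39.8) at 0 Thy1 UMIs and between 24.6% and 28.1% at 1 or more, and the share of Trdc-positive cells was 34.9% (33.1 to 36.7) at 0 and 50.3% (48.1 to 52.4) at 3 or more. In run 3, Trdc-positive cells were 32.4% (31.0 to 33.9) at 0 and 50.7% (45.9 to 55.5) at 3 or more. In run 1 the shares of Trdc-positive cells stayed between 50.4% and 52.5%. For Cd53, the share of Il2ra-positive cells of run 2 went from 32.0% (30.7 to 33.3) at 0 to 10.1% (7.73 to 12.9) at 3 or more, and that of Trac-positive cells from 20.4% (19.2 to 21.5) to 51.8% (47.6 to 56.0).

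Cd44 and Cd24a were rarely found in the same cell of runs 2 and 3. A Cd24a UMI was present in 17.9% (15.1 to 20.8) of cells with a Cd44 UMI and 56.4% (55.3 to 57.4) of cells without one in run 2, and in 14.8% (11.7 to 18.3) and 40.6% (39.5 to 41.8) in run 3. In run 1 the shares were 47.1% (29.8 to 64.9), from 34 cells, and 58.4% (57.1 to 59.7), and the intervals overlapped. Cd53 went with Cd44, being present in 61.8% (58.2 to 65.4) of Cd44-positive and 44.5% (43.4 to 45.5) of Cd44-negative cells of run 2 and in 37.2% (32.8 to 41.7) and 23.7% (22.8 to 24.8) of run 3. Thy1 and Cd53 were nearly independent in run 3, where Thy1 was present in 45.2% (42.9 to 47.5) of cells with and 45.8% (44.5 to 47.1) of cells without Cd53.

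The 4 classes formed by Cd44 and Cd24a held very different shares of the Trac and Il2ra gates in runs 2 and 3. In run 2, Cd44-positive Cd24a-negative cells (598 cells, 6.76% of the run) were Trac-positive in 76.8% (73.2 to 80.1) and Il2ra-positive in 4.18% (2.72 to 6.11). Cd44-negative Cd24a-positive cells (4578 cells, 51.7%) were Trac-positive in 7.12% (6.39 to 7.90) and Il2ra-positive in 39.0% (37.6 to 40.5). The largest class of run 3, without a UMI of either (4150 cells, 55.6%), lay between, with 21.2% (19.99 to 22.5) Trac-positive and 24.0% (22.8 to 25.4) Il2ra-positive cells. In run 3 Cd44-positive Cd24a-negative cells were Trac-positive in 43.9% (39.0 to 48.9). The share of Kit-positive cells ran from 0.836% (0.272 to 1.94) to 4.62% (1.71 to 9.78) over the classes of run 2. The latter was in 130 cells, and these intervals overlapped. Cd44-negative cells of run 2 were Kit-positive in 4.13% (3.57 to 4.75) with Cd24a and 1.92% (1.49 to 2.42) without it, which did not overlap. In run 3 it ran from 3.47% (1.91 to 5.76) to 7.14% (2.36 to 15.9), the latter in 70 cells, and the intervals overlapped.

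All 4 transcripts depended on the depth of a cell to some degree. Cd44 and Cd53 were higher in shallow cells of every run. Cd53 went from 191 CPM (178 to 205) in the lowest quartile of total UMIs to 15.7 CPM (13.9 to 17.6) in the highest quartile of run 1, from 586 CPM (566 to 606) to 170 CPM (164 to 175) in run 2, and from 237 CPM (227 to 247) to 85.0 CPM (82.0 to 88.1) in run 3. Cd44 went from 95.8 CPM (88.0 to 104) to 14.3 CPM (12.8 to 15.9) in run 2. Cd24a had its lowest level in the lowest quartile in runs 2 and 3, at 168 CPM (157 to 179) and 267 CPM (256 to 278), but its highest there in run 1, at 635 CPM (610 to 660). Thy1 varied least with depth, between 796 and 914 CPM in run 1. These levels by quartile are sums over cells given without shares of positive cells, so that fewer positive cells and less RNA per cell cannot be told apart in them.

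**Figure D5:**
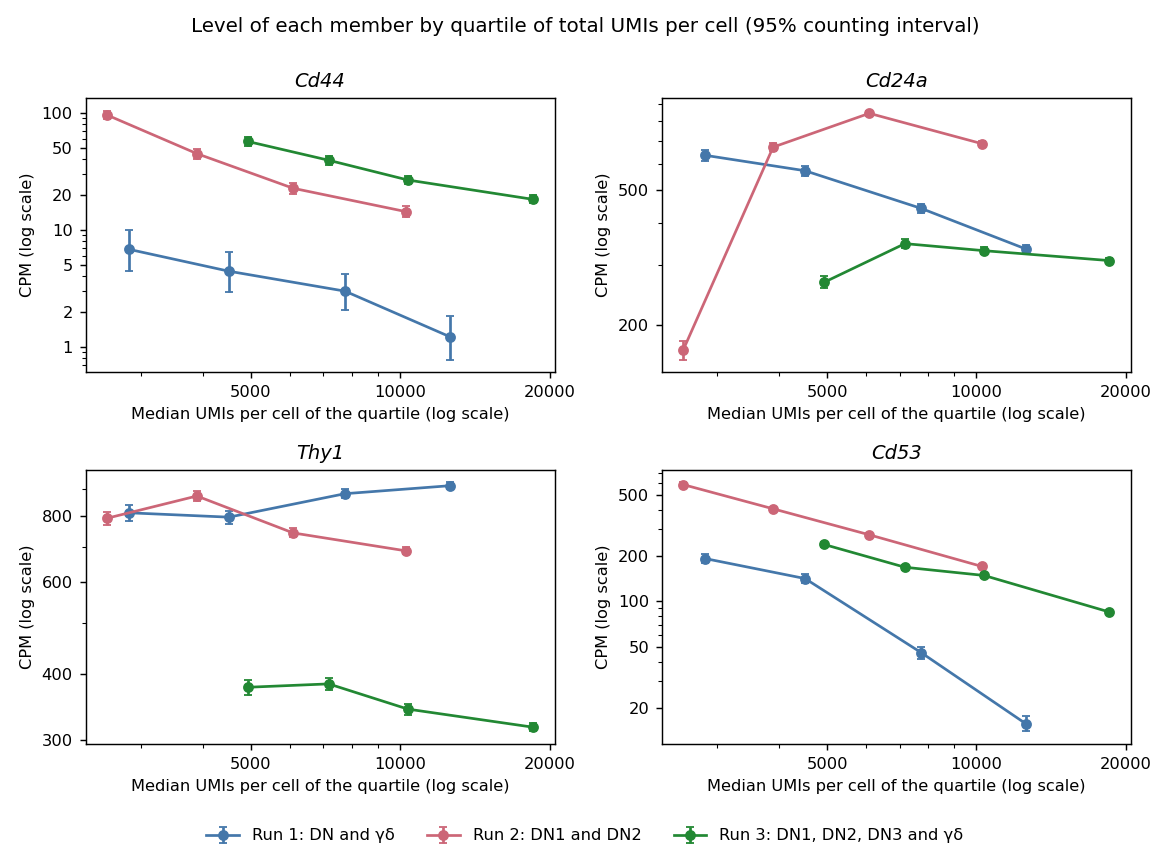
CPM of each member (y axes, log scale) against the median total UMIs of each quartile of cells (x axes, log scale), with 1 line per run and 95% counting intervals. Cd53 goes down from the shallowest to the deepest quartile in each run, from 191 to 15.7 CPM in run 1.

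Among the other surface markers of the study's sorts, Ly6d, a GPI-linked protein of lymphoid progenitors, ordered cells more strongly than Cd24a at the Il2ra gate, with an AUC of 0.678, 0.702 and 0.706 in runs 1, 2 and 3 (ranks 11, 7 and 9). At the Trac gate of run 2 the AUC of Ly6d was 0.208 (rank 21), next to 0.205 for Cd24a. Cd3e, a chain of the TCR complex, had an AUC of 0.373 (rank 9) at the Kit gate of run 2, farther from 0.5 than 0.593 for Cd24a and 0.438 for Thy1. Klrk1, which encodes the receptor NKG2D, had an AUC of 0.678 and 0.627 at the Trac gate of runs 2 and 3, above that of Cd44 in both.

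The genes whose levels over the 26 populations of all 4 gates were most like those of a member were taken among 5742 genes by Spearman's rho of log2(CPM + 1). These populations share 3 libraries, so that differences between runs enter every value. For Cd44 they were Bin1 (0.95), a membrane-bending protein, H2-Q6 (0.95), a nonclassical MHC class I gene whose reads can be shared with near-identical H2-Q genes, and Ccl5 (0.95), a chemokine that is also in the list of natural killer genes above. For Cd53 they were Efr3a (0.96), Klf2 (0.95), a transcription factor of quiescent and recirculating T cells, and Itm2b (0.94). For Cd24a they were Ptov1 (0.94), Hilpda (0.94), a protein of lipid droplets, and Ass1 (0.94), an enzyme of arginine synthesis. For Thy1 they were Emg1 (0.93), a ribosome biogenesis factor, Elavl1 (0.93), an RNA-binding protein, and Ppp1ca (0.92), a catalytic subunit of protein phosphatase 1.

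Within single runs the likeness was weaker for some of these genes. Ccl5 had a rho of 0.14 with Cd44 over the 6 populations of run 1, but 0.98 and 0.83 over the 10 each of runs 2 and 3. Emg1 had 0.54, 0.49 and 0.87 with Thy1. Between members, Cd24a and Cd44 had a rho of 0.83 in run 1 but -0.94 and -0.77 in runs 2 and 3, and Cd24a and Cd53 had 0.09, -0.65 and -0.94. In run 1, 5 of 5 neighbouring pairs of populations in the order of Cd44 had overlapping intervals. The order of Cd44 there, and with it the rho of 0.83, was not resolved beyond counting error.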

How the data were processed

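Single-cell RNA libraries of sorted thymocytes were made with 10x Genomics V2 or V3.1 kits. Per the file headers and the submitters' processing notes, the authors aligned reads to mm10 and counted UMIs per gene and cell with Cell Ranger (4.0.0 in run 3, the version for runs 1 and 2 not given in the sources used here). The notes also name R 3.6.3 and Seurat 2.3. The deposited values are raw counts.

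The members and lists were chosen with earlier results of these data known. Cells were retained where 500 to 5000 genes were detected and mitochondrial genes took no more than 7% of UMIs, and no doublets were removed. Counts were thinned to 2000 UMIs per cell with a fixed seed for gates, shares and AUC, whereas CPM used all UMIs of the cells compared. Log2 ratios and folds across gates used a pseudocount of 1 CPM, while intervals of log2 ratios and folds between populations used none. The genes named were the 4 members, the 4 gate genes, the surface markers the study used and, for each member, the 3 genes most like it by Spearman's rho among genes at 20 CPM or more over populations of at least 50 cells. Python 3.11.15, numpy 2.4.6, scipy 1.17.1, pandas 2.3.3 and scanpy 1.11.5 were used, and the scripts were tested on simulated data.

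As 9 other settings, the analysis was repeated with thinning to 1000 or 3000 UMIs, another seed, gates on all UMIs or at 2 or more UMIs, removal of the 700, 750 and 750 cells with the highest Scrublet scores in runs 1, 2 and 3, a mitochondrial limit of 5%, levels from thinned counts and a pseudocount of 10 CPM. Leaving out Trac-positive cells and the values within quartiles of total UMIs were added after seeing the data. A comparison with cells of another type that should lack Thy1 is not reported here.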

Additional observations from a re-analysis of the deposited data

Results flagged for a closer look

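Log2 ratios of opposite sign were found in run 1 and in another run for Cd44 and Cd53, and these differences between runs were not tested, since each sort had 1 library. For Cd53 at the Kit gate the log2 ratio of run 1 was above that of run 2 by 1.40 and above that of run 3 by 1.41. For Cd53 at the Il2ra gate it was above that of run 2 by 1.59 and that of run 3 by 1.93, and at the Trdc gate it was above that of run 2 by 1.28. Without Trac-positive cells the Cd53 ratio at the Kit gate was 0.14 in run 2 and -0.002 in run 3. At the Trdc gate of run 2 it was then 0.33, so that the opposite sign of run 2 was not kept at these 2 gates. For Cd44 the log2 ratio of run 1 was above those of runs 2 and 3 by 1.98 and 2.07 at the Il2ra gate and by 1.95 and 1.82 at the Trdc gate, and rested on 110 UMIs in all of run 1. Within quartiles of total UMIs of run 1, Cd44 went from -1.19 to 1.33 at the Il2ra gate, being below 0 in 2 of 4. At the Trdc gate it was above 0 in 4 of 4, from 0.05 to 1.14.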

How the results depend on the processing

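Of 12 ratios per gate, the Kit gate had 1 past 2-fold, against 2 after thinning to 1000 UMIs or with another seed, 0 with gates on all UMIs and 4 with gates at 2 or more UMIs. The Il2ra gate had 3, against 5 with gates on all UMIs. The Trdc gate had 3, against 1 with a pseudocount of 10 CPM and 1 without Trac-positive cells. The count at the Trac gate stayed within 1.5 times its value of 6 under the alternatives run. The cause of these shifts was not tested. The 2-fold calls of Cd53 were the least stable: that of the Il2ra gate in run 1 was lost under 5 alternatives, with log2 ratios from 0.44 to 0.90. No log2 ratio past 2-fold changed sign over all cells, but within quartiles of total UMIs Cd53 was at -0.73 in the shallowest quartile at the Il2ra gate of run 1 and at -0.02 at the Trac gate of run 2. With gates at 2 or more UMIs, Cd44 of run 1 went from 0.55 to -1.90 at the Kit gate and from -0.49 to 1.72 at the Trac gate. The low depth of Cd44 in run 1 limits its values there. No paired analysis was possible because each sort had 1 library and no result came from a test.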
